A study of Homo sapiens with 24 samples.

Results

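To examine how TGFβ changed H3K27me3 in PANC-1 cells, the 4 broad peak lists of this mark labelled siControl and siControl+TGFβ were compared, out of 18 peak lists and 24 samples in the series. PANC-1 cells come from a ductal carcinoma of the human pancreas. Every culture was transfected with an siRNA by RNAiMAX, and the siControl cells carried a control siRNA and no TGFβ, whereas the siControl+TGFβ cells carried the same control siRNA and were grown with TGFβ at 10 ng/ml for 48 h to induce the epithelial-to-mesenchymal transition (EMT). Each group held 2 libraries. The labels do not say whether the libraries came from separate cultures, so every spread below is that between libraries. All are of 1 cell line treated in bulk, and a peak in fewer cells and a weaker mark in each cell cannot be told apart.

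H3K27me3 is the trimethyl mark that the methyltransferase EZH1 or EZH2, within the Polycomb complex PRC2 with EED and SUZ12, places on histone H3. It spreads over broad domains, is read by PRC1 complexes through their CBX subunits, and accompanies silent developmental genes, many of which keep H3K4me3 at their CpG-rich promoters. TGFβ signals through receptor kinases to SMAD proteins, and in pancreatic carcinoma cells it can lower epithelial genes such as CDH1 and raise mesenchymal ones.

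Some facts of the files bear on every direction below. Groups were taken from the labels. Within the lists labelled siPHF13+TGFβ (cells depleted of PHF13 and given TGFβ), however, each peak is named with the study's short form of siControl+TGFβ, and within the lists labelled siControl+TGFβ with another short form. The lists labelled siPHF13+TGFβ are therefore set beside the main promoter values in a paragraph below, and every other result rests on the labels. The number of peaks that the study states for the shorter siControl list has an extra digit beside the deposited list, which was used here. H3K4me3 peaks, which mark active or poised promoters, lay at the epithelial keratin genes KRT8, KRT18 and KRT19 in all 4 libraries of these groups, and KRT7 had 148 bp in siControl+TGFβ replicate 1 and 0 bp in the other libraries. Of 10 markers of other cell types, CD14 had H3K4me3 in all 4 libraries and the other 9, among them PTPRC, CD3E, CDH5 and ALB, had 0 bp in all 4. CDKN2A, which PANC-1 is known to have lost, had 0 bp of H3K27me3 and of H3K4me3.

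The mark covered similar mean lengths of the genome in both groups, and the spread lay inside the siControl group. The siControl lists held 98211 and 165717 peaks (replicates 1 and 2) and covered 105.0 and 292.8 Mb. The siControl+TGFβ lists held 118061 and 111490 peaks and covered 166.8 and 191.2 Mb, both between the siControl values. The change in mean log2 covered length was 0.03, with a pooled SD of 0.75 (exact two-sided permutation test, p = 1, where 2 against 2 libraries cannot go below 0.33). Wide peaks differed most. Peaks of at least 10 kb numbered 374 and 3685 in the siControl lists and 1424 and 2107 in the siControl+TGFβ lists, and the median peak was 625 and 791 bp against 702 and 813 bp. Read depth is unknown, since the deposited lists give peaks only.

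No class of sequence stood apart with TGFβ. Coding promoters were taken as 3 kb on each side of the start of the canonical transcript of 20162 protein-coding genes. For 623 of these genes without one, the start of the longest coding transcript or of the gene was used. These promoter windows held 10.4 and 20.4 Mb of peaks in siControl and 15.1 and 15.9 Mb in siControl+TGFβ cells. The log2 change was 0.09 with a pooled SD of 0.49. Gene bodies outside these windows held 34.3 and 104.1 Mb against 58.1 and 66.2 Mb, a log2 change of 0.05 with a pooled SD of 0.81. Intergenic sequence held 60.3 and 168.3 Mb against 93.6 and 109.1 Mb, a log2 change of 0.01 with a pooled SD of 0.75. Each of these had exact permutation p = 1, adjusted over the 3 classes 1. As a share of covered bases, intergenic sequence was 57.4% ± 0.059 in siControl and 56.6% ± 0.66 in siControl+TGFβ (SD, n = 2), lower in both TGFβ-treated libraries, with the exact permutation p at its smallest of 0.33.

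**Figure D1:**
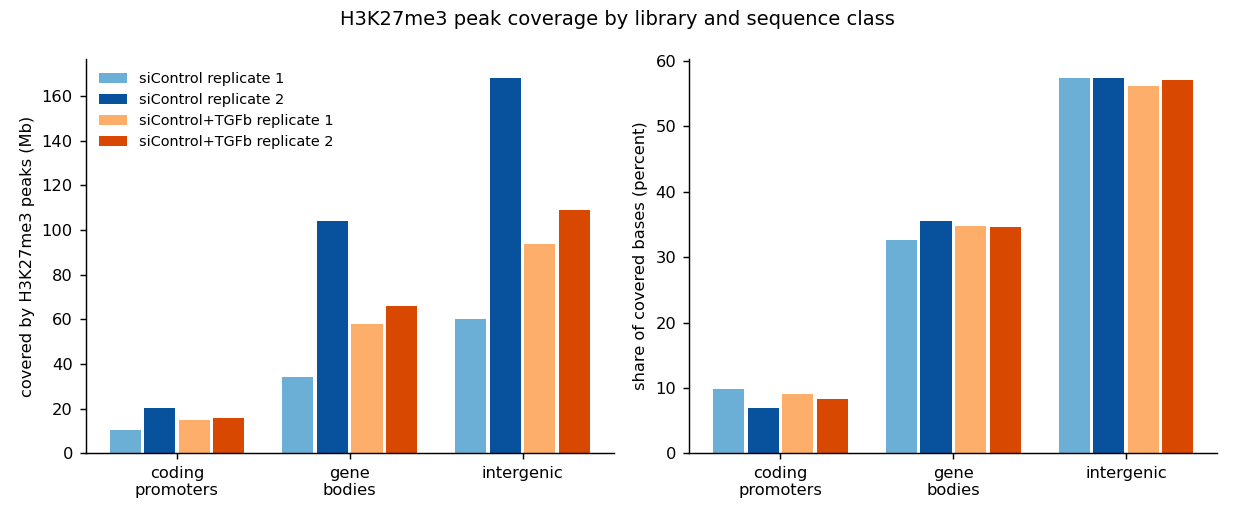
Length covered by H3K27me3 peaks in Mb (left) and share of each library's covered bases in percent (right) in coding promoters, gene bodies and intergenic sequence, 1 bar per library. In every class the siControl+TGFβ lengths lie between the short siControl replicate 1 and the long siControl replicate 2, while the shares differ little.

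The lists were then compared base by base. The 4 lists together covered 361.4 Mb, of which 56.5 Mb (15.6%) lay under all 4. Both siControl+TGFβ libraries and neither siControl library covered 8.0 Mb (2.21%), and both siControl libraries and neither siControl+TGFβ library covered 9.83 Mb (2.72%). The siControl replicate 2 list shared 36.7 Mb (10.2%) with siControl+TGFβ replicate 2 alone and 25.6 Mb (7.09%) with siControl+TGFβ replicate 1 alone, while siControl replicate 1 shared 3.40 Mb (0.941%) and 1.93 Mb (0.534%) with them. A further 96.9 Mb (26.8%) lay under siControl replicate 2 alone. The siControl replicate 2 list held 81.0% and 80.2% of the bases of the siControl+TGFβ replicates 1 and 2 and 83.4% of those of siControl replicate 1. The shared bases of siControl+TGFβ replicates 1 and 2 made 67.7% and 59.0% of each.

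At promoters most genes had no peak and a core set had one in every list. No list had a peak in the window of 12451 promoters (61.8%), and all 4 lists had one at 4438 (22.0%). In this core the median covered length was 2013 and 4369 bp in siControl and 3193 and 3473 bp in siControl+TGFβ, so the order of the libraries was that of the whole genome. A peak in both siControl+TGFβ libraries and in neither siControl library was found at 49 promoters (0.243%), and the reverse at 149 (0.739%).

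The genes that gained or lost the mark were then listed. A promoter was counted as gained where both siControl+TGFβ libraries covered at least 500 bp more than both siControl libraries, and as lost in the opposite case. These are counts with no test, and genes with overlapping windows count separately. By this rule 147 promoters (0.729% of all) were gained and 151 (0.749%) lost. No promoter passed limma on log2(bp + 100), with 0 of 6418 higher and 0 lower at an adjusted p-value of 0.05, and at an unadjusted 0.05 there were 11 higher and 33 lower. The counts were small beside the differences between the siControl libraries. Both replicate 2 libraries exceeded both replicate 1 libraries by 500 bp at 1346 promoters, siControl replicate 2 and siControl+TGFβ replicate 1 exceeded the others at 931, and the siControl replicate 1 library stood high with a TGFβ-treated library at 5 and 20. Without siControl replicate 1 the counts became 179 gained and 2897 lost, and without siControl replicate 2 they became 2656 gained and 212 lost. Leaving out siControl+TGFβ replicate 1 gave 550 and 305, and leaving out siControl+TGFβ replicate 2 gave 507 and 557.

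Comparing only the strongest peaks of each list, up to the covered length of the shortest list, evened out the covered length alone. The siControl lists then kept 98211 and 20386 peaks and the siControl+TGFβ lists 40914 and 29075. Replicate 1 of siControl kept its whole list, down to a −log10 q of 1.01, so weaker peaks stayed in that library than in the others. A call kept or dropped at equal covered length can depend on this. Gained promoters then numbered 354 (1.76%) and lost promoters 190 (0.942%), while the other 4 pairs of libraries stood higher at 239 to 518 promoters. Of the 147 gained promoters 73 (49.7%) were also gained at equal covered length, and these made 20.6% of the gained promoters there. Of the 151 lost promoters 52 (34.4%) were lost there too, or 27.4% of that list, and 0 promoters changed direction.

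**Figure D2:**
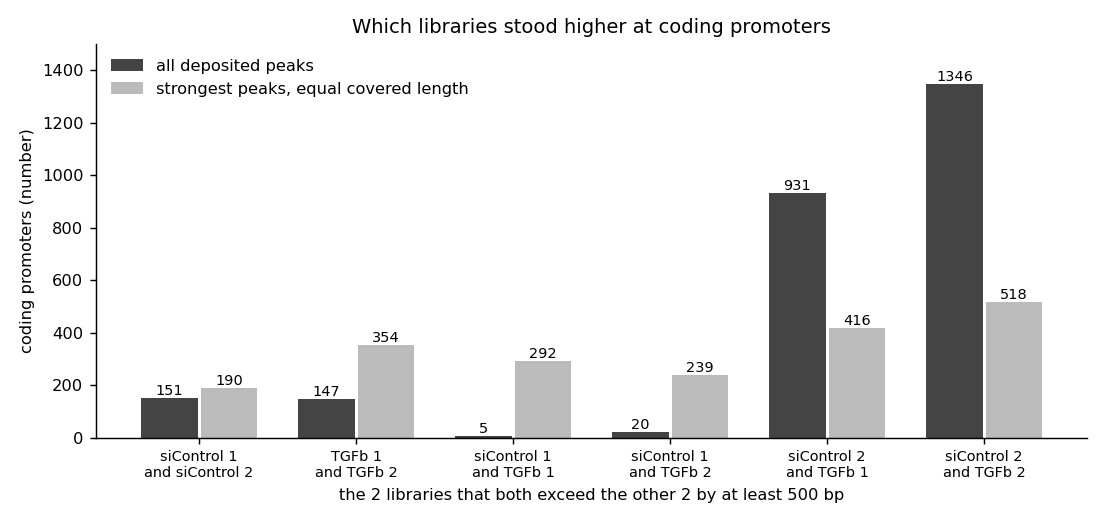
Number of coding promoters at which the named pair of libraries both covered at least 500 bp more than the other pair, with all deposited peaks (dark) and with the strongest peaks at equal covered length (light). With all peaks the pairs that hold siControl replicate 2 and a TGFβ-treated library lead, with 931 and 1346 promoters, against 147 gained and 151 lost.

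The sequence just upstream of the start site is given for LRRC15 and HES2 among the widest gains, for WFDC12 among the widest losses, and for BAMBI and INHBB, genes of TGFβ signalling described below, since Polycomb marks CpG-rich promoters. Each run is the 200 bases before the start site, read 5′ to 3′ from GRCh37 (hg19), with each CpG in capitals.
LRRC15, chr3:194090473-194090672, minus strand: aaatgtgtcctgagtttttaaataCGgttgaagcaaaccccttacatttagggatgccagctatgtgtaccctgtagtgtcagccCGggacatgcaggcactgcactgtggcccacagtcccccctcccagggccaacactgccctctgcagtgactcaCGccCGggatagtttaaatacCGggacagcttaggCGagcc
HES2, chr1:6479980-6480179, minus strand: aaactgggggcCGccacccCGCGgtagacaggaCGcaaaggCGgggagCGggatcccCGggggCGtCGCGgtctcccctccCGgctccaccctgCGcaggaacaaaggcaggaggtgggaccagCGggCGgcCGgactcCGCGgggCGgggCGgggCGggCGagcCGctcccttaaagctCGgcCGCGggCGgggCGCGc
BAMBI, chr10:28966250-28966449, plus strand: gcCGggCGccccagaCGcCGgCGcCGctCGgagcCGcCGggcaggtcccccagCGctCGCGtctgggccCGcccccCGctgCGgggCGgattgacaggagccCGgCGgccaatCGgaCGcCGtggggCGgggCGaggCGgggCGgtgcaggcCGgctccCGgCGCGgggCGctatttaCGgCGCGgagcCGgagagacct
INHBB, chr2:121103512-121103711, plus strand: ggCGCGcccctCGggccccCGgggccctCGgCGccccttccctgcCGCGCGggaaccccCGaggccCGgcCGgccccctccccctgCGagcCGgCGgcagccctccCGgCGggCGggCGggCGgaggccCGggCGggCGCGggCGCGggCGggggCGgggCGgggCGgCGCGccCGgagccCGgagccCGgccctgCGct
WFDC12, chr20:43753107-43753306, minus strand: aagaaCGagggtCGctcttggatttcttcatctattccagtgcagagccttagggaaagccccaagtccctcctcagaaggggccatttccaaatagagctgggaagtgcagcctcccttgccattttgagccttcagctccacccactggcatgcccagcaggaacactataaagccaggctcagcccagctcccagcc
BAMBI held 34 CpGs, INHBB 36 and HES2 28 in these 200 bases, against 6 in LRRC15 and 2 in WFDC12. Over all coding promoters the median was 15 (quartiles 6 and 22). It was 15 in the gained set and 11 in the lost set, so gained promoters were of both the CpG-rich and the CpG-poor kind.

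Among the promoters with the widest gains was a direct inhibitor of the pathway. BAMBI, a pseudoreceptor that blocks TGFβ receptor signalling (start site on chromosome 10 at 28966450, plus strand), had 1274 and 3995 bp covered in siControl and 5782 and 6000 bp in siControl+TGFβ, the last being the whole window. LRRC15, a leucine-rich repeat membrane protein of stromal cells (chromosome 3, 194090472, minus strand), had 1852 and 2602 bp against 5342 and 4851 bp. Its gap of 2249 bp was the widest of the gained set. HES2, a basic helix-loop-helix repressor, had 214 and 838 bp against 2674 and 2765 bp, and the phosphatase gene PTP4A3 had 413 and 151 bp against 2292 and 2163 bp. In these 4 genes both TGFβ-treated libraries stood above both siControl libraries by 1750 bp or more.

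The other genes of this set were of mixed function. GMPR, a guanosine monophosphate reductase, had 3373 and 3461 bp in siControl and 5353 and 5178 bp in siControl+TGFβ. The small membrane protein gene SMIM32 had 1423 and 2016 bp against 3660 and 3812 bp, and CAMKV, a kinase-like protein of vesicles, had 2626 and 2946 bp against 4526 and 4538 bp. Within each group the libraries of these genes lay closer than the groups did. Of the cytokine IL17A, 2137 and 2058 bp were covered against 3709 and 3665 bp, and of the olfactory receptor OR2S2, 3742 and 3672 bp against 5239 and 5522 bp. SAMD11 went from 0 and 1741 bp to 4634 and 3232 bp, and it was the only member of the 10 without a peak in 1 siControl library. At equal covered length 8 of these 10 were gained, IL17A and OR2S2 being the exceptions. Each of the 10 had a limma adjusted p of 1.

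None of the 10 widest losses was in the lists of TGFβ pathway genes. Those lists hold only 32 and 57 of the 20162 promoters, so an absence among 10 says little about the pathway. WFDC12, a small protein of the whey acidic protein family (chromosome 20, 43753106, minus strand), had 2976 and 4210 bp covered in siControl and 1000 and 1221 bp in siControl+TGFβ. DYNLT5, a dynein light chain gene, had 1715 and 1690 bp against 0 bp in both TGFβ-treated libraries. It was the only one of the 10 with no peak in either TGFβ-treated library. TAC1, which encodes the precursor of substance P, had 5487 and 5157 bp against 1337 and 3525 bp, and GUCY2F, a guanylate cyclase of the retina on the X chromosome, had 3317 and 4198 bp against 0 and 1748 bp.

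Another 5 losses kept some of the mark in every library. The ubiquitin ligase gene RNF144B had 2367 and 2698 bp against 860 and 907 bp, and AKAP14, an anchoring protein of protein kinase A, had 2420 and 2306 bp against 870 and 229 bp. TNFRSF11B, which encodes osteoprotegerin, had 3816 and 4073 bp against 1434 and 2465 bp. The potassium channel subunit gene KCNMB4 had 4362 and 5441 bp against 2525 and 3068 bp, and the olfactory receptor OR6X1 had 3288 and 2767 bp against 1504 and 1458 bp. None of these values overlapped between the groups, as the rule requires. WFDC12, TAC1, AKAP14, TNFRSF11B and KCNMB4 were lost at equal covered length too, and the limma adjusted p was 1 for each of the 10.

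**Figure D3:**
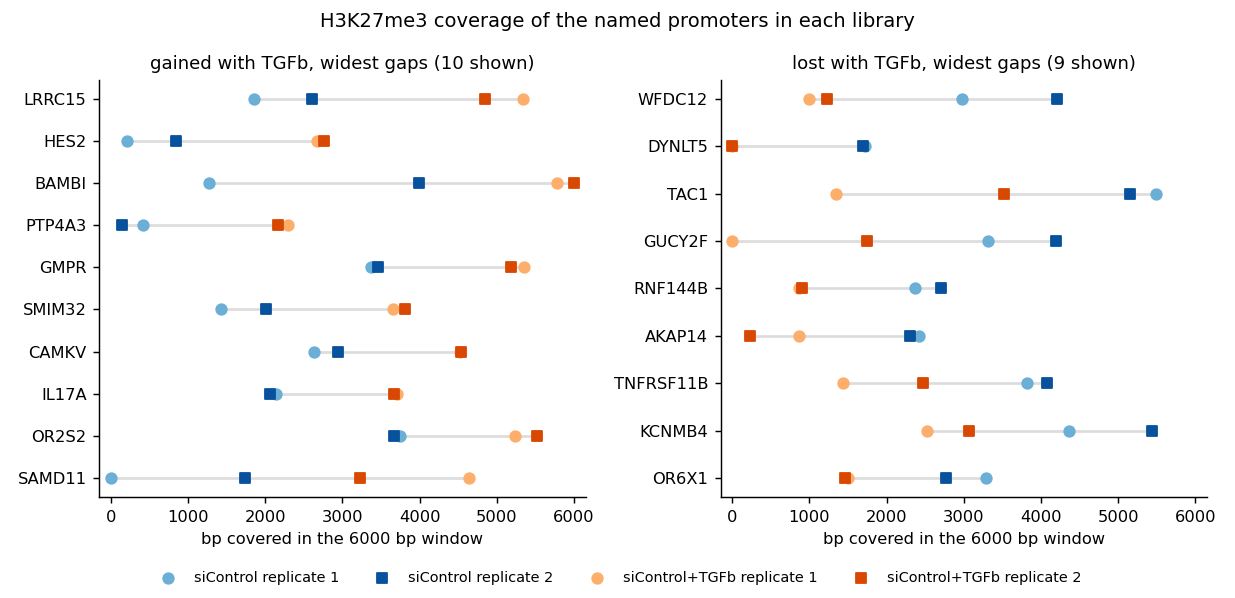
Base pairs covered by H3K27me3 peaks in the 6000 bp window of the 10 gained and 9 of the 10 lost promoters with the widest gap, 1 point per library (siControl blue, siControl+TGFβ orange, circles replicate 1, squares replicate 2). The gap is the selection rule. BAMBI reached 5782 and 6000 bp with TGFβ, and DYNLT5 had 0 bp in both TGFβ-treated libraries.

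Promoters near the threshold were alike on both sides of it. H2BK1 was just inside the gained set with 0 bp in each siControl library against 957 and 503 bp with TGFβ, and SPNS3 just outside with 0 bp in both and then 772 and 499 bp. Gaps of 250 to 500 bp were found at 142 promoters in the gained direction and 143 in the lost direction. A gap of at least 1000 bp was reached by 36 gained and 29 lost promoters.

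At gained promoters, which hold more covered bp with TGFβ by selection, the −log10 q of the peaks was examined too. The strongest overlapping peak had a median −log10 q of 1.97 and 2.46 in the siControl lists, where 111 and 135 of the 147 had a peak, and 1.94 and 2.02 in the siControl+TGFβ lists, where all had one. At CDH1 more bp were covered with TGFβ by peaks of a lower −log10 q, 1.82 and 1.61 against 2.15 and 2.36. At HES2 these values were 1.80 and 1.82 with TGFβ against 2.29 and 2.63, and at SMIM32 1.73 and 1.84 against 1.54 and 2.67. For BAMBI they were 2.09 and 2.33 with TGFβ against 1.95 and 2.53. At lost promoters the medians were 1.65 and 1.96 in siControl and 1.86 and 2.01 in siControl+TGFβ over the 105 and 95 that still had a peak. With only peaks of −log10 q of at least 2, the difference in mean covered length turned to the opposite sign at CDH1, HES2, GMPR, SMIM32 and IL17A.

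Most gained promoters also held a peak without TGFβ. Of the 147 gained promoters 110 had a peak in both siControl libraries, 26 in 1 and 11 in neither. Over all promoters 7711 had a peak in at least 1 list and 4438 in all 4. Every lost promoter had a peak in both siControl libraries, as the rule requires. Of the 151 lost promoters 92 kept a peak in both siControl+TGFβ libraries, 16 in 1 and 43 in neither. The difference lay on both sides of the start site. In the gained set it averaged 825 bp over the 3 kb upstream and 616 bp over the 3 kb downstream, and in the lost set it was −751 and −551 bp.

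**Figure D4:**
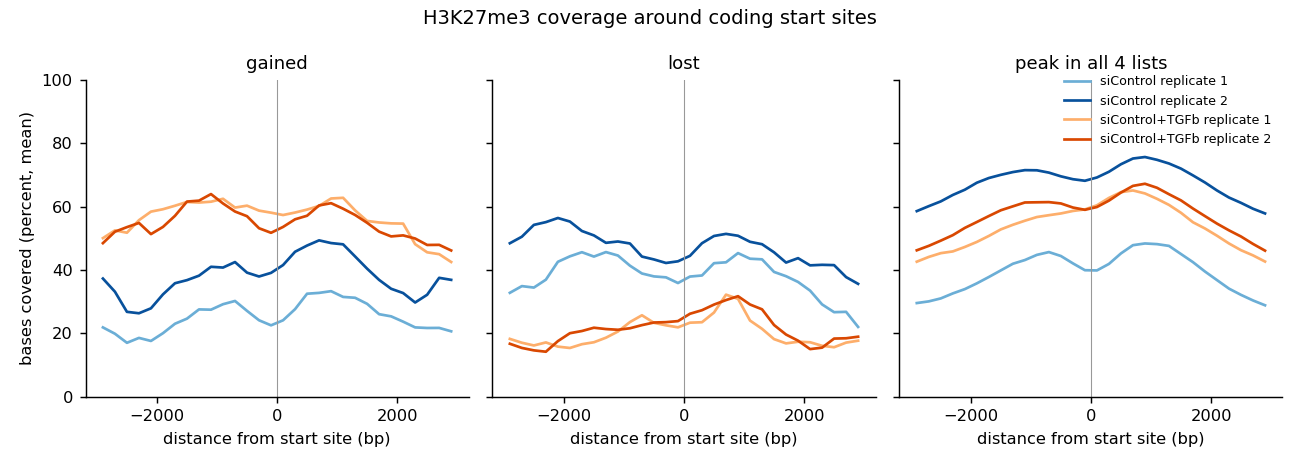
Mean percent of bases covered by H3K27me3 peaks in 200 bp bins against distance from the start site in bp (upstream is negative), 1 line per library, for 147 gained promoters, 151 lost promoters and 4438 promoters with a peak in all 4 lists. The first 2 panels differ by selection and run along the whole window, and in the third the siControl+TGFβ lines lie between the siControl lines.

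Gained and lost promoters differed in base composition, and so did the libraries. The median GC content of the window was 53.7% in the gained set (quartiles 49.7 and 58.0) and 45.1% in the lost set (41.6 and 49.4), against 49.2% over the 7711 promoters with a peak in any list. At equal covered length the medians were 52.2% and 46.1%. All bases under the peaks had a GC content of 45.9% in each siControl library and of 48.0% and 46.5% in siControl+TGFβ replicates 1 and 2, a difference of 1.35 percentage points (exact permutation p = 0.33, higher in both TGFβ-treated libraries). The genome has 40.9%. The part of base composition in the gains and losses was not tested.

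Genes of the TGFβ pathway were next described by role. The shares of gains and losses over all promoters include the 61.8% with no peak in any list. Of the 4438 promoters with a peak in all 4 lists 110 were gained and 92 lost. A gene list rich in marked promoters can therefore exceed the shares over all promoters with no change of its own. The gene lists here and below were not matched for this. Among 57 ligands, receptors and antagonists of the TGFβ and BMP families 24 (42.1%) had the mark in all 4 lists, 1 was gained (1.75%) and 0 were lost, where all promoters gave 22.0%, 0.729% and 0.749%. The gained one was INHBB, the activin B subunit (chromosome 2, 121103712, plus strand), with 1163 and 1873 bp in siControl and 4113 and 3235 bp in siControl+TGFβ, and it was also gained at equal covered length. BMP4, a bone morphogenetic protein, had 1554 and 5078 bp against 5374 and 6000 bp. The receptor ACVRL1 had 628 and 6000 bp against 4335 and 5511 bp. For BMP4 both TGFβ-treated values were the higher ones but by less than 500 bp, and for ACVRL1 the groups overlapped. The receptor BMPR1B had 4074 and 5930 bp against 2780 and 4445 bp.

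Of 32 genes listed as targets of TGFβ and SMAD proteins 23 (71.9%) had no peak in any list, against 61.8% of all promoters. Among the listed genes without a peak was SNAI1, a repressor of CDH1. Gained promoters numbered 2 of 32 (6.25%), BAMBI among them, against 0.729% over all promoters, and 0 were lost. ID2, an inhibitor of basic helix-loop-helix factors, had 0 bp in each siControl library against 197 and 368 bp with TGFβ. NEDD9, a scaffold protein of focal adhesions, had 4643 and 4746 bp against 3883 and 4681 bp. The median difference over the list was 0 bp, as over all promoters.

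Of 20 transcription factors of EMT 9 (45%) had the mark in all 4 lists, against 22.0% of all promoters, and 0 were gained and 0 lost, where the shares over all promoters were 0.729% and 0.749%. The homeobox gene PRRX2 had 0 and 569 bp against 821 and 1112 bp with TGFβ, higher in both treated libraries but by less than 500 bp. SNAI2, which encodes SLUG, had 2952 and 6000 bp in siControl and 2459 and 5198 bp in siControl+TGFβ, so the libraries differed by replicate more than by treatment. The repressor ZEB2 had 3854 and 5789 bp against 5811 and 4905 bp, and PRRX1, a homeobox factor of mesenchyme, had 1259 and 3753 bp against 2756 and 3385 bp. ZEB1, SOX9 and SNAI1 had 0 bp in all 4 lists.

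Of 45 genes of epithelial identity 17 (37.8%) had the mark in all 4 lists, against 22.0% of all promoters. Among the 45, CDH1 was gained (2.22%) and 0 were lost, against 0.729% and 0.749% over all promoters. CDH1, the epithelial cadherin whose loss marks EMT (chromosome 16, 68771195, plus strand), had 773 and 834 bp in siControl and 1607 and 1606 bp in siControl+TGFβ. The 2 libraries of each group were nearly equal and the groups lay 772 bp apart. The limma log2 difference was 0.92 with an SE of 0.91 and an adjusted p of 1. At equal covered length the peak of siControl+TGFβ replicate 2 at CDH1 was no longer among the peaks kept, with values of 773 and 834 bp against 1607 and 0 bp. EPCAM, an epithelial adhesion molecule, had 222 and 1998 bp against 1830 and 1663 bp, and the splicing regulator ESRP1 had 6000 bp in both siControl libraries against 5591 and 5346 bp.

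Of 52 mesenchymal and matrix genes 18 (34.6%) had the mark in all 4 lists, against 22.0% of all promoters. Among the 52, PDGFRB was gained (1.92%) and 0 were lost, against 0.729% and 0.749% over all promoters. PDGFRB, a receptor of platelet-derived growth factor, had 0 and 1369 bp in siControl and 2077 and 2414 bp in siControl+TGFβ. It was no longer gained at equal covered length, where it had 0 bp in both untreated libraries against 741 and 0 bp. BGN, which encodes the proteoglycan biglycan, had 0 and 1735 bp against 3200 and 1372 bp, and the collagen gene COL6A2 had 181 and 2824 bp against 1033 and 0 bp. CDH2, the neural cadherin, and the matrix metalloproteinase gene MMP2 had 0 bp in all 4 lists. PAPLN, a matrix protein related to ADAMTS proteases, had 2974 and 5344 bp against 5674 and 4531 bp, and the protocadherin PCDHB8 had 1328 and 2269 bp against 2127 and 1926 bp. Neither of these separated the groups.

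Developmental genes often held the mark in every list. Of 120 developmental transcription factors 64 (53.3%) had a peak in all 4 lists, against 22.0% of all promoters, and 0 were gained and 0 lost, where the shares over all promoters were 0.729% and 0.749%. Of 39 HOX genes 13 had it in all 4 lists and 1 was gained (2.56%), HOXA9, with 0 and 1068 bp in siControl and 2545 and 1842 bp in siControl+TGFβ. HOXA9 had 0 bp in all 4 lists at equal covered length. Of 29 WNT ligands and antagonists 20 (69.0%) were marked in all 4 lists, 0 were gained and 1 (3.45%) was lost. The lost one was the ligand WNT2B, with 2002 and 2177 bp against 1115 and 367 bp. It was no longer lost at equal covered length, with 2002 and 0 bp against 0 bp in both. The WNT list was the only one with a median difference above 0, of 220 bp.

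Axon guidance genes gave 3 gained promoters of 65 (4.62%) and 0 lost, against 0.729% and 0.749% over all promoters. Of these 65 promoters 32 (49.2%) had the mark in all 4 lists, against 22.0% of all promoters. The netrin receptor gene UNC5A had 3501 and 5237 bp in siControl and 6000 bp in both siControl+TGFβ libraries. EFNA3, an ephrin ligand, had 4707 and 3584 bp against 5354 and 6000 bp, and ROBO4, a roundabout receptor of endothelium, had 1303 and 1218 bp against 2134 and 2930 bp. UNC5A and EFNA3 were also gained at equal covered length and ROBO4 was not. Of 36 genes of the pancreatic lineage 23 (63.9%) were marked in all 4 lists, against 22.0% of all promoters. Of these 36 genes 0 were gained and 0 lost, beside the same 0.729% and 0.749%. INS, the insulin gene, had 906 and 6000 bp against 6000 and 3895 bp.

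**Figure D5:**
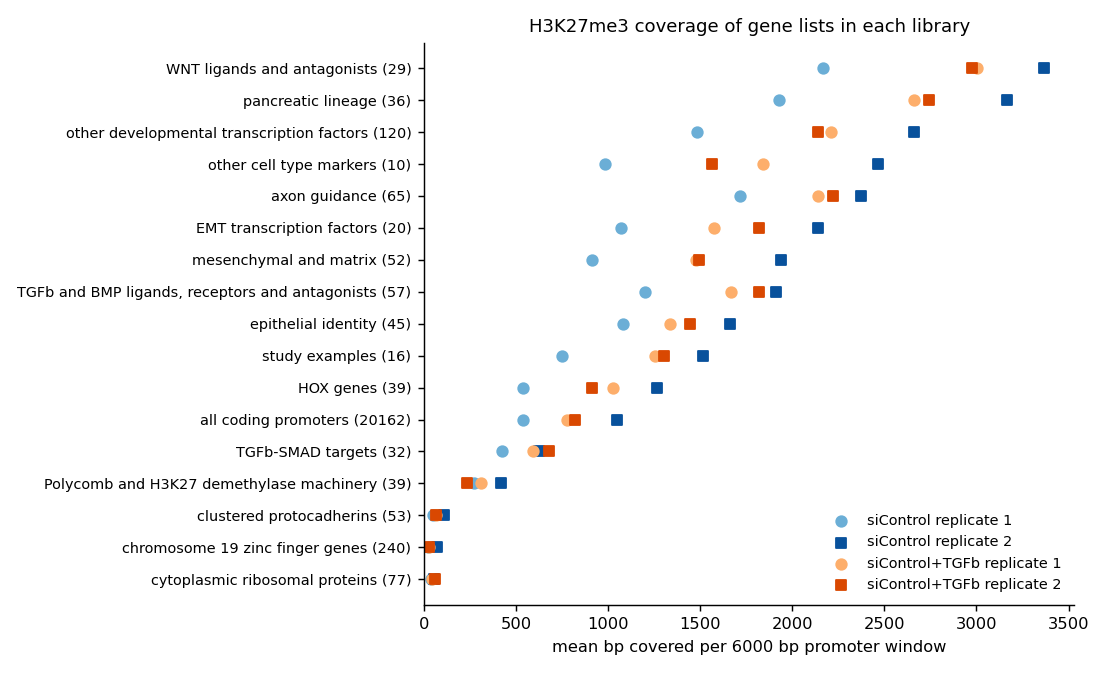
Mean base pairs covered by H3K27me3 peaks per 6000 bp promoter window for 16 gene lists and all coding promoters (number of promoters in parentheses), 1 point per library. In most lists siControl replicate 1 is lowest and siControl replicate 2 highest with the siControl+TGFβ libraries between them, and the WNT list is the highest at 2165 to 3365 bp.

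Gene bodies and domains were counted by their covered share. A body was counted where the groups lay at least 10 percentage points of its length apart, and of 16940 bodies of at least 2 kb outside promoter windows 25 (0.148%) were gained and 17 (0.1%) lost. They were short, with medians of 4198 and 4347 bp. EIF4E1B, a translation initiation factor gene, was the only one of them longer than 10 kb. Its covered share was 21.6% and 41.5% in siControl and 64.1% and 54.3% in siControl+TGFβ. The CT45A2 and CT45A8 genes of the gained set belong to a family of near-identical copies, where aligned reads are uncertain. No body passed limma, with 0 of 5874 higher or lower at an adjusted 0.05 and 0 higher and 7 lower at an unadjusted 0.05.

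Domains were built by joining the peaks of the 4 lists across gaps of up to 3 kb and keeping those of at least 10 kb. There were 11859, covering 388.0 Mb, and the median covered share was 14.6% and 54.5% in siControl and 26.1% and 32.4% in siControl+TGFβ. At the same 10 percentage points 12 domains (0.101%) were gained and 68 (0.573%) lost, while limma called 0 of 11859 in either direction, also at an unadjusted 0.05. The excess of losses depended on the peaks used. At equal covered length 404 of 6401 domains were gained and 322 lost, and at an equal number of peaks 78 of 10277 were gained and 76 lost. Without siControl replicate 1 the counts were 13 gained and 8646 lost, and without siControl replicate 2 they were 5144 and 76.

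The widest gained domain lay over C1QTNF5 and MFRP, genes expressed in retinal pigment epithelium (chromosome 11, 119209515 to 119224456). It was covered over 43.9% and 67.9% in siControl and 99.3% and 93.0% in siControl+TGFβ. A domain inside NTM, a neuronal adhesion gene (chromosome 11, 131273686 to 131283962), had 0% and 8.92% against 24.8% and 29.2%. The domain over EFNA3 (chromosome 1, 155044413 to 155056638) had 67.4% and 69.3% against 87.1% and 84.1%. Domains at COL20A1, a collagen gene, and inside CROCC2 completed the 5 widest, with 42.4% and 69.6% against 84.0% and 86.3% and with 2.74% and 30.5% against 44.4% and 45.2%. Both TGFβ-treated libraries were within 7 points of each other in each of these 5 domains.

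Most lost domains held no coding gene. Of the 68 lost domains 42 (61.8%) held no coding gene, against 45.9% of all domains, and their median GC content was 40.1% against 43.9%. Of the 12 gained domains 2 held none, and their median GC content was 50.6%. Both sets held short domains, with median lengths of 12868.5 bp (lost) and 13396 bp (gained) against 20179 bp over all domains. A shorter domain has less room for a gene, and the shares were not matched for length. The widest loss, near the end of chromosome 1 (249227323 to 249238394) with no coding gene, was covered over 74.3% and 76.2% in siControl and 39.9% and 8.80% in siControl+TGFβ. A domain on chromosome 5 (143107009 to 143117563), also without a coding gene, had 35.3% and 62.3% against 4.73% and 12.4%. The domain at DAB2, an adaptor of endocytosis and TGFβ signalling (chromosome 5, 39452809 to 39467484), had 34.8% and 35.9% against 12% and 5.70%. KCNMB4, among the lost promoters, also lay in 1 of the 5 widest lost domains, with 55.0% and 67.2% against 27.5% and 32.3%.

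The same promoters were examined in the lists labelled siPHF13+TGFβ, which also come from TGFβ-treated cells and which the rule did not use. These lists covered 48.6 and 188.8 Mb. In place of the siControl+TGFβ lists they gave 8 gained promoters (0.0397%) and 303 lost (1.5%). These counts use the same siControl libraries as the ones above. Of the 10 promoters with the widest gains 0 were gained with these lists. Of the 10 with the widest losses 8 were lost with them. Replicate 1 of these lists covered less than either siControl list. It lay below both siControl libraries at 21.2% of all promoters and above both at 0.590%. A gain needs both lists to stand above both siControl libraries. Whether the named gains or the named losses depend more on the labels therefore cannot be told from these counts. Over the 147 gained promoters the median covered length was 540 and 2386 bp in these lists, beside 1023 and 2058 bp without and 3497 and 3193 bp with TGFβ among the siControl cells. Over the 151 lost promoters it was 232 and 1279 bp, beside 1598 and 2306 bp without and 643 and 621 bp with TGFβ. Replicate 1 of the lists labelled siPHF13+TGFβ had the lowest median in both sets. BAMBI had 540 and 4286 bp in the lists labelled siPHF13+TGFβ and CDH1 had 0 and 1246 bp.

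The active marks were set beside these promoters. H3K4me3 was present in all 4 libraries at 82 of the 147 gained promoters (55.8%), at 88 of the 151 lost promoters (58.3%) and at 58.9% of promoters with H3K27me3 in all 4 lists. H3K27ac, the mark of active promoters and enhancers, was present in all 4 libraries at 12 gained (8.16%) and 19 lost promoters (12.6%), against 6.83% of promoters with H3K27me3 in all 4 lists and 46.0% of all promoters. Counted by the same 500 bp rule, H3K27ac was higher with TGFβ at 2 gained and 2 lost promoters and lower at 0 of both, and H3K4me3 was higher at 1 gained and 0 lost promoters and lower at 0. Over all promoters H3K4me3 was higher at 0.451% and lower at 0. Over all promoters H3K27ac was higher at 2.44% and lower at 0, and its coverage was the largest in siControl+TGFβ replicate 1, with a mean of 884 bp per window against 397 to 602 bp in the other libraries.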

How the data were processed

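ChIP-seq peak lists of PANC-1 cells were used as deposited. The authors, per the labels and their methods, trimmed reads with Trim Galore 0.4.1, aligned them to hg19 with Bowtie2 2.4.1, removed duplicates with Picard and called broad peaks per library with MACS2 2.2.7.1 against input. The deposited columns are peak positions, the score and fold (ratio over input) of each peak, and −log10 p and −log10 q values. Only positions and −log10 q were used for counts, and fold and score were not compared between lists. A deeper or better enriched library gives more and wider peaks, and the deposited lists state no depth.

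Peaks were merged per library and bp covered were counted at GENCODE release 44 genes on GRCh37. No peak passed a chromosome end (0 peaks). Covered lengths were compared by exact permutation tests of log2 values, and promoters, bodies and domains with limma 3.58.1 in R 4.3.3 (log2(bp + 100), mean of at least 200 bp, Benjamini-Hochberg adjusted p under 0.05). Groups came from the labels. The members, lists and rules were chosen with earlier results of these data known. Named genes were the 10 promoters, and the 5 bodies of at least 10 kb and 5 domains, with the widest gap in each direction, up to 4 members per list, and 11 genes named in any case, and some of these are not reported here. BMP4, ACVRL1, BMPR1B and the other list members that were neither gained nor lost were chosen after their values were seen. Scripts were tested on simulated data. Of 11 markers of other cell types 10 were found in the annotation. Alternatives were equal covered length (strongest peaks by −log10 q), equal number of peaks, −log10 q of at least 2, a window of 1 kb, each library left out, another pseudocount (500 bp), no filter, centring, a replicate block, gaps of 1 kb and, chosen after seeing the data, a gap of 1000 bp between groups and the lists labelled siPHF13+TGFβ.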

Additional observations from a re-analysis of the deposited data

How the results depend on the processing

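The change in log2 covered length was within the pooled SD under each alternative with all libraries except for intergenic sequence at equal covered length, and its sign was unstable. With −log10 q of at least 2 it was −0.091 for the whole genome, −0.051 for gene bodies and −0.13 for intergenic sequence, and at equal covered length it was −0.024 for intergenic sequence, each with the opposite sign (exact permutation p = 1 for the first 3 and 0.667 for the last). For the whole genome, equal covered length gives no value by construction. Leaving out 1 library gave −0.71 to 0.77 for the whole genome, −0.40 to 0.57 for promoters, −0.75 to 0.85 for gene bodies and −0.74 to 0.75 for intergenic sequence, and siControl replicates 1 and 2 gave the ends of each range.

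Promoters gained numbered 354 at equal covered length, 76 with a window of 1 kb and 36 with a gap of 1000 bp, and promoters lost 46 and 29 under the last 2. Gene bodies gained were 120 and lost 41 at equal covered length, 51 and 11 at an equal number of peaks, and 37 lost with −log10 q of at least 2. Domains gained were 404 at equal covered length, 78 at an equal number of peaks, 39 with −log10 q of at least 2 and 20 with gaps of 1 kb joined, and domains lost 322, 194 and 41 under the first, the third and the last. The cause was not tested. Leaving out 1 library gave 179 to 2656 promoters gained and 212 to 2897 lost, 28 to 1533 bodies gained and 24 to 1884 lost, and 13 to 5144 domains gained and 76 to 8646 lost.

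The limma counts at an adjusted 0.05 were 0 under every alternative with all libraries except without a filter, where 39 promoters and 21 bodies passed. Without the filter the median residual SD was 0 for promoters and for bodies, so these calls are not to be relied on. Leaving out 1 library gave 0 to 426 promoters, 0 to 344 bodies and 0 to 2019 domains. The replicate block gave 0 calls for promoters, bodies and domains. The labels of libraries with the same number do not say what else they share. Their deviations from the group means correlated by −0.03, −0.09 and −0.06 over promoters, bodies and domains. A shift common to all features would not show in these correlations, and replicate 1 covered less than replicate 2 in both groups. The block lowered the median residual SD over promoters from 0.783 to 0.584 and changed no call. Of 29 promoters that the rule for named genes gave 17 kept their call at equal covered length, 26 at an equal number of peaks, 8 with −log10 q of at least 2 and 12 with a window of 1 kb. The difference in mean bp turned to −526 at HES2, −836 at GMPR, −1008 at SMIM32, −743 at IL17A and −804 at CDH1 with −log10 q of at least 2, and to −266 at IL17A with a window of 1 kb.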

Other observations

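Of 39 promoters of the Polycomb machinery itself 26 (66.7%) had no peak in any list and 7 (17.9%) had one in all 4, near the 61.8% and 22.0% of all promoters. Of the 39, 0 were gained and 0 lost, where all promoters gave 0.729% and 0.749%. EZH2, the methyltransferase, had 0 bp in all 4 lists. EED, a core subunit of PRC2, had 641 and 1369 bp in siControl and 498 and 440 bp in siControl+TGFβ, BMI1, a PRC1 subunit, had 656 and 644 bp against 200 and 429 bp, and JARID2, a cofactor of PRC2, had 490 and 798 bp against 0 and 205 bp. PHC2, also of PRC1, had 1510 and 473 bp against 0 bp in both TGFβ-treated libraries, a gap of less than 500 bp. These 4 genes were chosen after their values were seen, and 0 of the 39 passed limma. CBX2 and CBX8, which encode readers of the mark, had 3017 and 4083 bp against 3550 and 3180 bp and 1363 and 2020 bp against 2195 and 2142 bp.

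Of all promoters 61.8% had no peak in any list, and 3 further families were set beside that share. Of 77 ribosomal protein promoters 71 (92.2%) had no peak in any list, of 240 zinc finger promoters of chromosome 19 225 (93.8%), and of 53 clustered protocadherin promoters 45 (84.9%), with 0 gained and 0 lost in each list, against 0.729% and 0.749% over all promoters. RPL38, a ribosomal protein of the large subunit, was an exception with 2381 and 2562 bp in siControl and 2374 and 2638 bp in siControl+TGFβ. Of the 10 markers of other cell types and of the 16 genes that the study uses as examples, 0 were gained among the markers and CDH1 alone among the examples, and 0 were lost in both.

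Since the widest lost domain lay near a chromosome end, the first and last 200 kb of sequence of every chromosome were measured, a choice made after the data were seen. Peaks covered 1342 and 2758 kb there in siControl and 1898 and 2138 kb in siControl+TGFβ (exact permutation p = 1), and 2 of the 68 lost domains lay within 200 kb of an end.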
